A study of Mus musculus with 4 samples.

Results

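The cells described here are macrophages of B16 melanoma tumours that carried transcripts of Ccl8, a chemokine that binds receptors on monocytes and other leukocytes, or of Cbr2, a carbonyl reductase. There were 275 of them among 7581 cells of the series. They were chosen by measured values. A cell had at least 5 UMIs (unique molecular identifiers, counts of captured RNA molecules) of Lyz2, the lysozyme gene of myeloid cells, and at least 5 UMIs of Ccl8 and Cbr2 together. It could not hold at least 2 UMIs each of Ear2 and Mgl2, and it held at most 1 UMI of Cd209a, of Xcr1 and Clec9a, of the Cd3 genes and of Cd79a. S100a8 and S100a9 had to make up less than 1% of its UMIs. All counts, shares and differences in Lyz2, Ccl8, Cbr2 and these excluded genes therefore describe the gate and are no findings.

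The study set male C57BL/6 mice labelled ATPIF1 knock-out (KO below) against male C57BL/6 wild-type mice (WT). ATPIF1 is the inhibitor protein of the mitochondrial ATP synthase, and the labels do not describe the allele. All animals bore B16 melanoma in the flank, and tumours were taken on day 12. Tumour suspensions were mixed within each genotype, sorted for CD45 and loaded at about 17400 cells per chip position for 10x 5′ libraries. The labels give n = 6 mice without saying whether that number is per genotype. Each genotype thus gave 1 RNA library and 1 T cell receptor library, from pooled animals. No test between genotypes was possible, and every interval below covers counting error only, at the 95% level.

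Tissue macrophages fall broadly into resident cells, which take up dying cells and debris and keep tissues in order, and cells that arise from blood monocytes. In mice, resident macrophages of connective tissue and perivascular niches are known for genes such as Folr2, Mrc1, Lyve1, Gas6 and Cbr2, while newly recruited cells carry Ly6c2 and Ccr2. Interferons, which T cells and infected or stressed cells release, switch on a shared set of antiviral and antigen presentation genes in macrophages of either kind.

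The 2 gate genes lie on mouse chromosome 11 but far apart, Ccl8 (ENSMUSG00000009185) at chr11:82115185-82116799 beside the chemokine genes Ccl2, Ccl7 and Ccl12, and Cbr2 (ENSMUSG00000025150) at chr11:120729485-120732025, in RefSeq coordinates of GRCm38.p6. Their promoters are shown because these genes chose the cells, and those of Isg15, Oas3 and Gbp2 because interferon-induced genes differed between the libraries as a group. Each runs from 250 bases before to 50 bases after the RefSeq start on the gene's strand, in GRCm38.p6. Capitals mark matches, on either strand, to GAAA, any 2 bases, GAAA, the core of the interferon-stimulated response element (ISRE).

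Ccl8 (chr11:82114935-82115234, plus strand): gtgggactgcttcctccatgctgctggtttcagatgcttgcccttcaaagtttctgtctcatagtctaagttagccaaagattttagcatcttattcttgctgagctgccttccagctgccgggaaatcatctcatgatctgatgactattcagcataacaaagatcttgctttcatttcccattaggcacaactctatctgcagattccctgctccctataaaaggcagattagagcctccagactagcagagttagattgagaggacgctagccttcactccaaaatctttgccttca
Cbr2 (chr11:120731972-120732271, minus strand): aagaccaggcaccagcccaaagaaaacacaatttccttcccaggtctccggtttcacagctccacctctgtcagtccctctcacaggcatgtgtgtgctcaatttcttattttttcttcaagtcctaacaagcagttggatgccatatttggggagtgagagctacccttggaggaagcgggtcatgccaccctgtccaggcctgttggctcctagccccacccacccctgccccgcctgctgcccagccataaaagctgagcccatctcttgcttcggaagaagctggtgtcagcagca
Isg15 (chr4:156200769-156201068, minus strand): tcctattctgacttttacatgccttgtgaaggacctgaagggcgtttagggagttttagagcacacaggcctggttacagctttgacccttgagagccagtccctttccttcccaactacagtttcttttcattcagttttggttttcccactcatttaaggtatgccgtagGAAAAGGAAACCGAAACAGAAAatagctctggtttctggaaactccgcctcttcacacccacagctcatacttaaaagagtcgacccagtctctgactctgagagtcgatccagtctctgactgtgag
Oas3 (chr5:120777610-120777909, minus strand): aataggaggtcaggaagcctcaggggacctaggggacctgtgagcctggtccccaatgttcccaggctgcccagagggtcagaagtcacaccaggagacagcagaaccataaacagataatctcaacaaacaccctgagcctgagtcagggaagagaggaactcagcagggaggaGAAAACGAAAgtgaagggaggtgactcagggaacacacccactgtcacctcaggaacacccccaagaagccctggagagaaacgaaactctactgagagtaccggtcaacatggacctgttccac
Gbp2 (chr3:142620413-142620712, plus strand): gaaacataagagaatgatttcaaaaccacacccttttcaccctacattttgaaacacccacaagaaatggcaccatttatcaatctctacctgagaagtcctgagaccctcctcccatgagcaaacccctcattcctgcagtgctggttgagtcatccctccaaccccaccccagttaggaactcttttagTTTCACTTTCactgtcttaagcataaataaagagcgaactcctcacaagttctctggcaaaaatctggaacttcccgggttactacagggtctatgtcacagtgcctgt

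Isg15 held 3 overlapping matches, whose first bases lie at -78, -72 and -66 with the first base of the start counted as 0. Oas3 held 1 at -75 and Gbp2 held 1 at -59, on the opposite strand. No match lay in the windows of Ccl8, Cbr2, Ltc4s or Cxcl9. Of all 32851 promoters of this length, 3.44% held a match. Counted by gene, it was present for 3.99% of all genes with a promoter. It was present for 22 of the 33 genes with a promoter in the list of type I interferon-induced genes. The list of interferon gamma-induced genes held it for 12 of 20 genes, and that of resident macrophage genes for 1 of 26. The spaced motif TTC, any 3 bases, GAA, the core of the gamma-activated sequence that reads alike on both strands, lay in none of the 5 windows printed. It was found for 10 of 20 interferon gamma-induced genes with a promoter, for 9.55% of all genes with a promoter and in 8.30% of all promoters.

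The libraries held 24385843 UMIs in KO and 35152477 in WT, and 3211 KO and 4370 WT barcodes passed the filters for cells. In the library labelled KO the targeted gene was no lower than in WT. In the Ccl8 Cbr2 cells Atpif1 had 691 UMIs in the library labelled KO and 1998 in WT, which is 910.0 and 927 counts per 1000000 UMIs (CPM), and the log2 ratio of KO over WT was -0.03 (-0.15 to 0.10). In T cells Atpif1 stood at 252 CPM in KO and 169 CPM in WT, so every direction below is that of the library labelled KO. Of all cell barcodes, 29 occurred in both RNA libraries. No barcode was a Ccl8 Cbr2 cell in both, and 2 KO and 1 WT of these cells shared a barcode with another kind of cell in the other library.

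Ccl8 Cbr2 cells made up a smaller share of the KO than of the WT library under the gate on UMIs, and the shares differed less when the step on Ccl8 and Cbr2 was set as a share of each cell's UMIs. There were 92 among 3211 KO cells, which is 2.87% (2.32 to 3.502), and 183 among 4370 WT cells, which is 4.19% (3.61 to 4.82). The log2 ratio of the shares, KO over WT, was -0.55 (-0.93 to -0.18). Among cells with at least 5 Lyz2 UMIs and the same exclusions other than that on Ear2 and Mgl2 (Lyz2 cells below), the shares were 7.65% of 1203 in KO and 11.8% of 1547 in WT, with a log2 ratio of -0.63 (-1.01 to -0.26). The KO cells were shallower, with a median of 6857 UMIs against 11145 in WT. When Ccl8 and Cbr2 had to make up at least 0.05% of a cell's UMIs in place of 5 UMIs, 129 KO and 184 WT cells passed, and the log2 ratio was -0.07 among all cells and -0.15 among Lyz2 cells. The other steps stayed on UMIs in that setting. The gate was otherwise narrow in what it removed, since 101 KO and 189 WT cells had the Lyz2, Ccl8 and Cbr2 counts and the exclusions dropped 9 and 6 of them.

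At the threshold itself, 13 KO and 32 WT cells held exactly 5 UMIs of Ccl8 and Cbr2, and 25 KO and 27 WT Lyz2 cells held 4 and stayed out. The median cell held 11 UMIs of the pair in KO and 10 in WT, and the highest held 164 in KO and 130 in WT. Few cells reached 5 UMIs of both gate genes. At least 5 Ccl8 UMIs were found in 51 KO cells (55.4%) and 71 WT cells (38.8%), and at least 5 Cbr2 UMIs in 50 KO cells (54.3%) and 129 WT cells (70.5%). Both genes reached 5 UMIs in 14 KO and 31 WT cells. These shares move with depth. With each cell thinned to 2000 UMIs, 8.05% of KO and 3.30% of WT cells held at least 5 Cbr2 UMIs, the opposite order. Summed over cells, Ccl8 stood at 2115 CPM in KO and 839 CPM in WT, and Cbr2 at 843 CPM in KO and 669.8 CPM in WT.

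**Figure D1:**
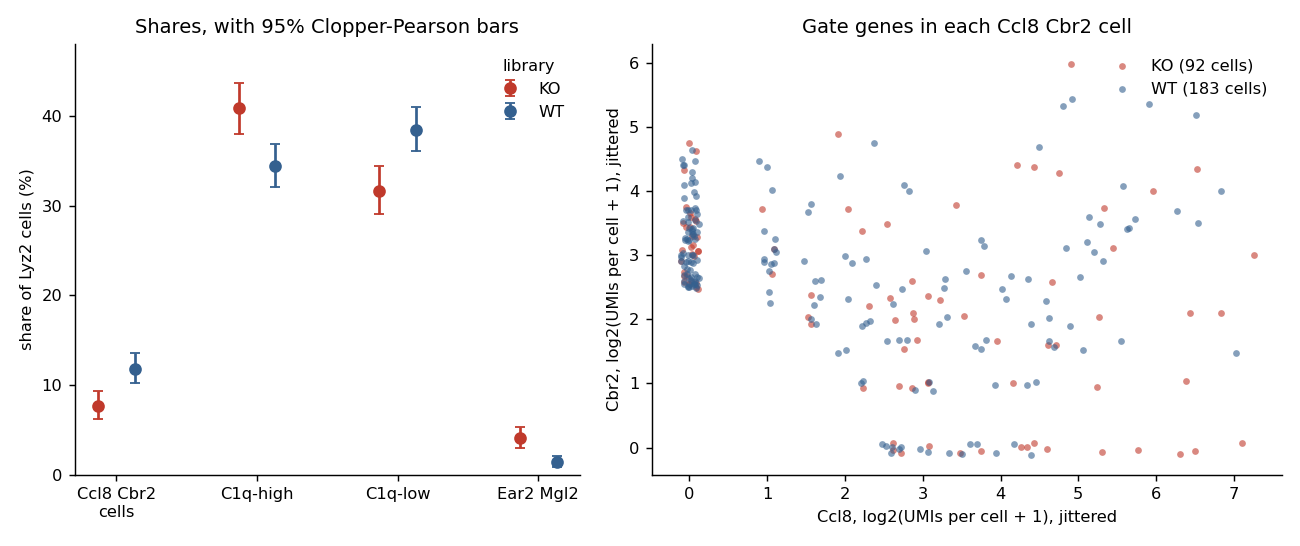
Left, the share of Lyz2 cells (%, with 95% Clopper-Pearson bars) in 4 groups of cells, with the KO library left of WT. Right, Ccl8 against Cbr2 in each Ccl8 Cbr2 cell, as log2(UMIs + 1) with jitter, for 92 KO and 183 WT cells. The Ccl8 Cbr2 share is 7.65% in KO and 11.8% in WT, and cells spread from high Cbr2 with no Ccl8 to high Ccl8 with no Cbr2, with 14 KO and 31 WT cells at 5 or more UMIs of both genes.

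The label of resident-like macrophages was checked on genes outside the gate, against 3 groups of Lyz2 cells from the same libraries. C1q-high cells had at most 1 UMI of Ccl8 and Cbr2 and at least 10 UMIs of the complement genes C1qa, C1qb and C1qc (491 KO and 532 WT cells). C1q-low cells had at most 2 UMIs of those genes (381 KO and 595 WT cells). Ear2 Mgl2 cells had at least 2 UMIs of both Ear2 and Mgl2 (49 KO and 22 WT cells). Since expression made the groups, these differences are descriptions. T cells, with at least 2 Cd3 UMIs and at most 1 Lyz2 UMI, served as background.

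The Ccl8 Cbr2 cells were macrophages by their general markers. Csf1r, the receptor for the macrophage growth factor CSF1, stood at 336 CPM in KO and 313 CPM in WT. Adgre1, which encodes F4/80, stood at 255 CPM in KO and 252 CPM in WT. C1qa stood at 2642 CPM in KO and 3061 CPM in WT.

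The 3 label markers outside the gate were higher than in C1q-high cells of the same library. Gas6, a bridging ligand that links dying cells to TAM receptors, stood at 178 CPM in KO Ccl8 Cbr2 cells against 22.7 in KO C1q-high cells, and at 245 CPM in WT Ccl8 Cbr2 cells against 47.8 in WT C1q-high cells. Igf1, an insulin-like growth factor, stood at 138 CPM against 45.1 in KO and at 325 CPM against 115 in WT. Fcrls, an Fc receptor-like gene known from microglia, stood at 133 CPM against 72.4 in KO and at 255 CPM against 101 in WT. The KO value leans on 1 cell. It held 62.7% of the 51 Fcrls UMIs in the 29 KO cells with at least 3 UMIs of Ltc4s, a gene described below. The other 63 KO Ccl8 Cbr2 cells stood at 102 CPM. With each cell thinned to 2000 UMIs, Fcrls was found in 18.4% of KO Ccl8 Cbr2 cells and 10.1% of KO C1q-high cells. Ear2 Mgl2 cells held 171 CPM of Fcrls in KO and 191 CPM in WT, more than the Ccl8 Cbr2 cells in KO and less in WT. With each cell thinned to 2000 UMIs, a Gas6 UMI was found in 29.9% of 87 KO and 34.1% of 182 WT Ccl8 Cbr2 cells, against 2.78% of KO and 7.98% of WT C1q-high cells. In T cells the share was 0 of 505 in KO, which allows up to 0.594%, and 0.211% of 473 in WT. Without thinning, the Gas6 shares in Ccl8 Cbr2 cells were 54.3% in KO and 71.0% in WT. The median depth was 2430 UMIs in KO and 2829 UMIs in WT for T cells.

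Of 24 measured genes of a list of resident macrophage genes, 16 were at least 1.5-fold higher than in C1q-high cells in both libraries and 0 were lower. Over all 8732 genes measured, 3.42% were higher and 4.86% lower by that rule. The list median, Ccl8 Cbr2 cells over C1q-high cells on the log2 scale, was 1.31 in KO and 0.85 in WT, beside -0.05 and 0.02 over all genes. Folr2, a folate receptor, stood at 461 CPM against 61.2 in KO and at 279.9 CPM against 73.1 in WT. Selenop, which carries selenium in plasma, stood at 926 CPM against 265 in KO and at 1116 CPM against 413 in WT. Mrc1, the mannose receptor, stood at 487 CPM against 253 in KO and at 433 CPM against 250 in WT. Stab1, a scavenger receptor, stood at 317 CPM against 139 in KO and at 577 CPM against 212 in WT. Lyve1, a hyaluronan receptor, and Cd163, the haemoglobin scavenger receptor, were rare. Lyve1 stood at 85.6 CPM in KO and 5.57 CPM in WT, and Cd163 at 30.3 CPM in KO and 16.2 CPM in WT. Timd4, a phosphatidylserine receptor that marks some long-lived resident macrophages, had 0 UMIs in both libraries.

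Genes were also ranked by the smaller of the 2 log2 ratios over C1q-high cells. They needed at least 50 UMIs over both groups of cells in each library, and levels above those of empty droplets. The highest after the gate genes were led by Npl, a sialic acid lyase, with log2 ratios of 3.24 in KO and 3.097 in WT. Gas6 followed with 2.97 in KO and 2.35 in WT. Stard8, a RhoGAP with a lipid transfer domain, had 1.95 in KO and 2.00 in WT. Folr2 had 2.91 in KO and 1.94 in WT. Lyve1, with ratios of 5.97 in KO and 3.26 in WT, had 15 UMIs over both groups in WT and was left out by that minimum. The rest of the 15 were Padi4, Cela1, Serpinb6a, Ltc4s, Scamp5, Igf1, Cdkn3, Ednrb, Selenop, Rnase4 and Pbk. Ltc4s encodes leukotriene C4 synthase and Ednrb an endothelin receptor, while Cdkn3 and Pbk are genes of dividing cells. Thus the leading genes mix resident macrophage genes, a lipid mediator enzyme and cell cycle genes.

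**Figure D2:**
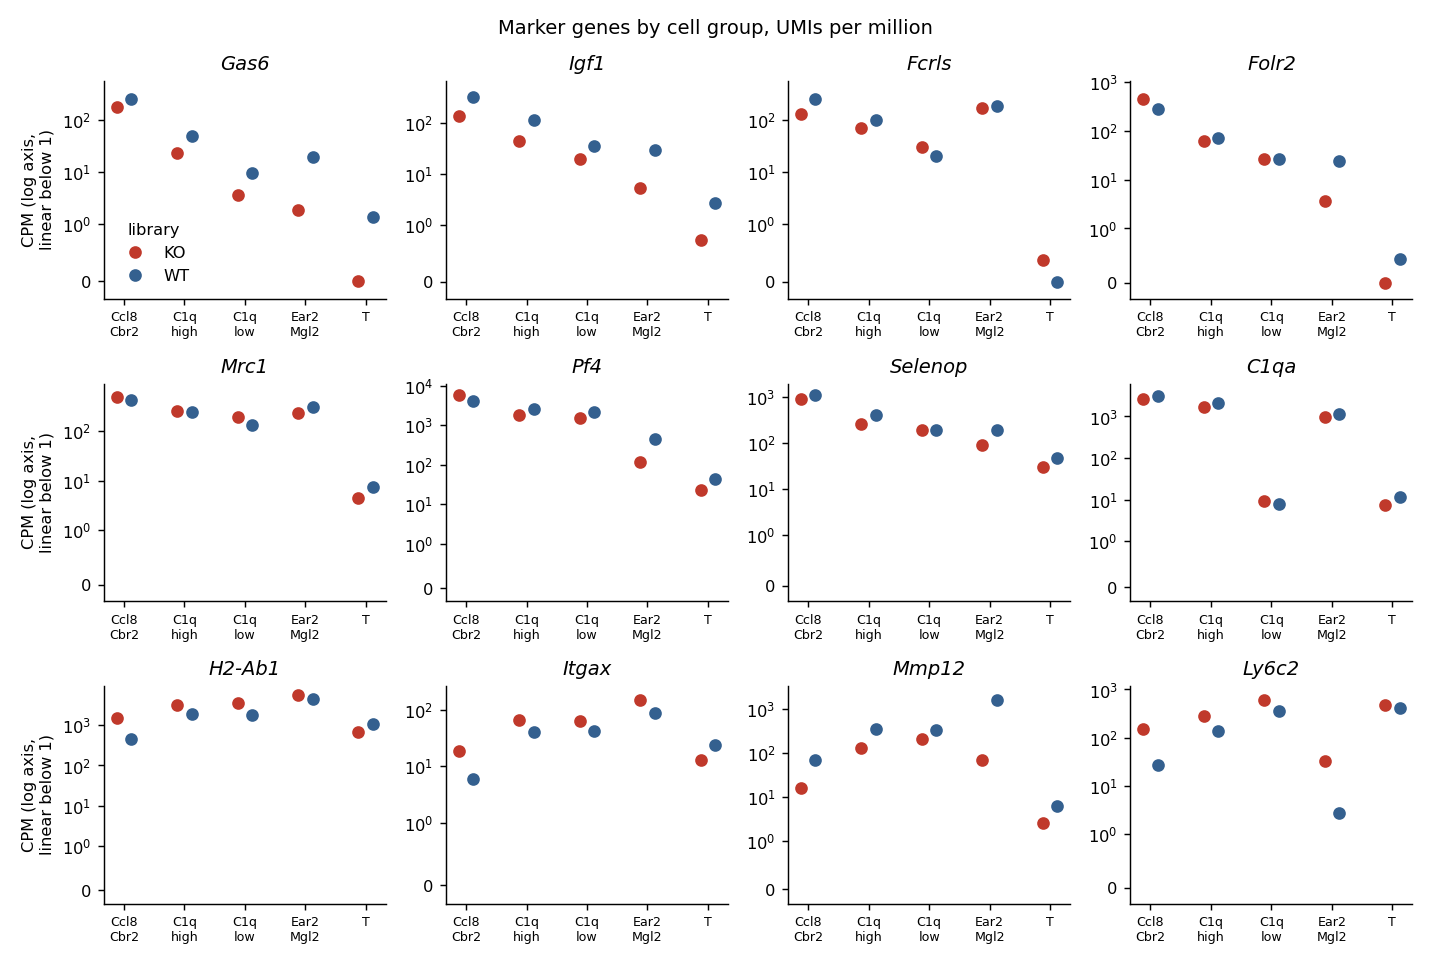
CPM (log axis, linear below 1) of 12 marker genes in Ccl8 Cbr2 cells, C1q-high, C1q-low and Ear2 Mgl2 cells and T cells, 1 point per library with KO left of WT. Gas6, Igf1, Folr2 and Selenop are highest in Ccl8 Cbr2 cells in both libraries, Fcrls is higher in Ear2 Mgl2 than in Ccl8 Cbr2 cells in KO and lower in WT, and H2-Ab1, Itgax and Mmp12 are lower in Ccl8 Cbr2 than in C1q-high cells.

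Most genes of antigen presentation by MHC class II, and some of those of matrix remodelling and of inflammation, were lower in Ccl8 Cbr2 cells than in C1q-high cells. For MHC class II, 10 of 13 measured genes were at least 1.5-fold lower in both libraries and 0 were higher, beside 4.86% lower over all genes. H2-Ab1, a class II chain, stood at 1534 CPM against 3285 in KO and at 452 CPM against 1909 in WT. In the matrix list, 10 of 19 genes were lower and 1 was higher. Mmp12, the macrophage elastase, stood at 15.8 CPM against 132 in KO and at 71.0 CPM against 349 in WT, whereas Timp2, a protease inhibitor, stood higher, at 483 CPM against 157 in KO and at 373 CPM against 181 in WT. In the inflammatory list, 10 of 24 were lower and 0 were higher, and the other 14 did not pass the rule. Il1b, the interleukin-1 beta gene, stood at 288 CPM against 894 in KO and at 63.6 CPM against 334 in WT. The lowest genes by the same rule were Retnla, Mmp12, Ear2, Sdc1, Cxcl14, Itgax, Bcl2a1a, Bcl2a1d, Sirpb1c and F11r, of which Ear2 is partly excluded by the gate. Itgax, the CD11c gene of dendritic cells and some macrophages, stood at 18.4 CPM against 67.5 in KO and at 6.03 CPM against 40.2 in WT. The C1q-high cells also held more melanoma transcripts. The 4 melanoma markers Pmel, Mlana, Dct and Tyrp1 summed to 11.9 CPM in KO and 69.6 CPM in WT Ccl8 Cbr2 cells, and to 156 CPM in KO and 311 CPM in WT C1q-high cells. Their part in these differences was not tested.

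Of 25 cell cycle genes, 12 were higher than in C1q-high cells and 0 were lower. Mki67, a marker of proliferation, stood at 60.6 CPM against 32.8 in KO and at 84.0 CPM against 44.1 in WT. This rested on few cells in KO. The list median of 0.87 in KO became 0.12 with each cell thinned to 2000 UMIs and 0.18 without the 5% of Ccl8 Cbr2 cells with most UMIs. At 2000 UMIs per cell, at least 2 UMIs of 10 division genes were found in 6 of 87 KO cells (6.90%) and 32 of 182 WT cells (17.6%), and in 5.57% of KO and 8.56% of WT C1q-high cells. Without thinning the shares in Ccl8 Cbr2 cells were 17.4% in KO and 31.1% in WT. Free RNA can add UMIs to any cell, and its part in these calls was not tested.

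In Ccl8 Cbr2 cells, interferon-induced genes stood higher in KO than in WT. Of 8011 genes with at least 20 UMIs over both libraries, 828 (10.3%) were at least 1.5-fold higher in KO and 1167 (14.6%) at least 1.5-fold lower, by size alone. The list of type I interferon-induced genes had 37 of 40 measured genes higher and 0 lower, with a median log2 ratio of 1.36, beside -0.06 over all genes. Isg15, a ubiquitin-like antiviral modifier, had 448 UMIs (590.0 CPM) in KO and 396 UMIs (184 CPM) in WT, a log2 ratio of 1.68 (1.48 to 1.88). Ifi27l2a, an interferon-induced mitochondrial protein gene, stood at 5327 CPM in KO and 1594 CPM in WT. Oas3, an enzyme that senses double-stranded RNA, had 41 UMIs in KO and 21 UMIs in WT, 54.0 and 9.75 CPM, a log2 ratio of 2.47 (1.68 to 3.30). Irf7, the transcription factor that amplifies type I interferon, stood at 203 CPM in KO and 67.3 CPM in WT. Ifitm3, a membrane protein that restricts viral entry, stood at 3279 CPM in KO and 1254 CPM in WT. The 3 genes short of 1.5-fold were Isg20, Dhx58 and Eif2ak2, with log2 ratios of 0.50, 0.24 and -0.11.

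The difference was spread over cells. The type I list made up a median of 1.38% of a cell's UMIs in KO, from 0.120% to 4.62%, and a median of 0.307% in WT, from 0% to 4.17%. The lower and upper quartiles were 0.663% and 2.06% in KO, and 0.163% and 0.606% in WT, so the lower quartile in KO lay above the upper quartile in WT although the full ranges overlapped.

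Of the interferon gamma-induced genes, 17 of 20 measured were higher in KO and 0 lower, with a median of 1.45. Gbp2, a guanylate-binding protein, stood at 55.3 CPM in KO and 9.75 CPM in WT. Ly6a, the Sca-1 surface protein, had 486 UMIs in KO and 134 in WT, 640.0 and 62.2 CPM, a log2 ratio of 3.36 (3.08 to 3.65). Cxcl9, a chemokine that attracts activated T cells, had 145 UMIs in KO and 31 in WT, a log2 ratio of 3.73 (3.16 to 4.34). With each cell thinned to 2000 UMIs it was found in 6.90% of KO and 1.10% of WT cells, against 1.39% of KO T cells and 0 of 473 WT T cells, which allows up to 0.634%. Without thinning it sat in 7.61% of KO and 1.09% of WT cells, and 1 cell held 57.9% of its UMIs in KO and 51.6% in WT. Without the 3 cells whose barcode occurred in the other library too, its log2 ratio was 2.50 (1.85 to 3.17). Some of the largest ratios in this list, Serpina3g at 4.96 and Iigp1 at 4.90, rest on 2 WT UMIs each.

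Free RNA held more of these genes in KO as well. In empty droplets, with 10 to 100 UMIs, Ly6a stood at 399 CPM in KO and 83.2 CPM in WT, and Isg15 at 397 CPM in KO and 207 CPM in WT. Cxcl9 stood at 159 CPM in KO and 5.22 CPM in WT empty droplets, close to its 191 CPM in KO Ccl8 Cbr2 cells and below its 14.4 CPM in WT ones. The type I list summed to 6996 CPM in KO and 3908 CPM in WT empty droplets. The levels of Ly6a, Isg15, Slfn4, Oas3 and H2-T23 in WT Ccl8 Cbr2 cells lay below those in WT empty droplets. Free RNA was estimated at 4.53% of UMIs in KO and 4.95% in WT Ccl8 Cbr2 cells. With that share subtracted, the KO over WT log2 ratio was 3.41 for Ly6a and 1.71 for Isg15. In C1q-high cells the same estimate was far larger, at 27.6% of UMIs in KO and 21.0% in WT. It was made from haemoglobin, melanoma and T cell receptor genes, and C1q-high cells held more melanoma transcripts. What part of the C1q-high estimate is free RNA was not tested.

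The differences in interferon-induced genes were not confined to the Ccl8 Cbr2 cells. In C1q-high cells, where 7.04% of 9970 genes were at least 1.5-fold higher in KO and 7.96% lower, the type I list had 38 of 43 genes higher in KO, with a median of 0.94, and the gamma list 25 of 29 higher and 1 lower, with a median of 1.26. For single genes the C1q-high ratios were 1.45 for Isg15, 0.99 for Oas3, 1.68 for Ly6a and 6.31 for Cxcl9. Whether the ratios differ between the 2 groups of cells could not be tested with 1 library per genotype. In the Ccl8 Cbr2 cells the type I median ran from 1.15 to 1.53 over all the settings tried, cells weighted alike, free RNA subtracted and cells thinned among them.

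Antigen presentation followed the same direction. Of 21 MHC class I genes, 14 were higher in KO and 0 lower, with a median of 0.85. H2-T23, a non-classical class I gene, stood at 240 CPM in KO and 72.9 CPM in WT, and B2m, the class I light chain, at 3088 CPM in KO and 1664 CPM in WT. Of 12 MHC class II genes, 9 were higher and 0 lower, with a median of 0.93. H2-Ab1 had 1165 UMIs in KO and 973 in WT, a log2 ratio of 1.76 (1.64 to 1.89). Cd74, the invariant chain, stood at 5609 CPM in KO and 2261 CPM in WT. Class II genes were nevertheless uneven among cells. The list made up a median of 0.834% of UMIs in KO cells, with a highest cell at 9.44%, and a median of 0.489% in WT cells, with a highest cell at 8.38%. In C1q-high cells 14 of 22 class I genes were higher in KO and 0 lower, with a median of 0.70. There 8 of 15 class II genes were higher and 1 lower, with a median of 0.61. The class II list summed to 16965 CPM in KO and 11302 CPM in WT empty droplets. Its sums in Ccl8 Cbr2 cells lay below these, at 15206 CPM in KO and 7828 CPM in WT.

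Markers of monocytes were also higher in KO. Of 5 measured, 4 were higher and 0 lower, and the 7 markers summed to 949 CPM in KO and 336 CPM in WT. Ly6c2 stood at 149 CPM in KO and 26.9 CPM in WT, Plac8 at 365 CPM and 81.7 CPM, and Ccr2, the receptor for Ccl2, at 373 CPM and 190 CPM. Hp, the haptoglobin gene, was nearly absent, at 5.27 CPM in KO and 5.57 CPM in WT. In C1q-high cells the summed level was 1538 CPM in KO and 880 CPM in WT. The part of recently recruited cells in the differences between libraries was not tested. In a pool, a different mix of cells and a different level per cell cannot be told apart by summed counts.

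**Figure D3:**
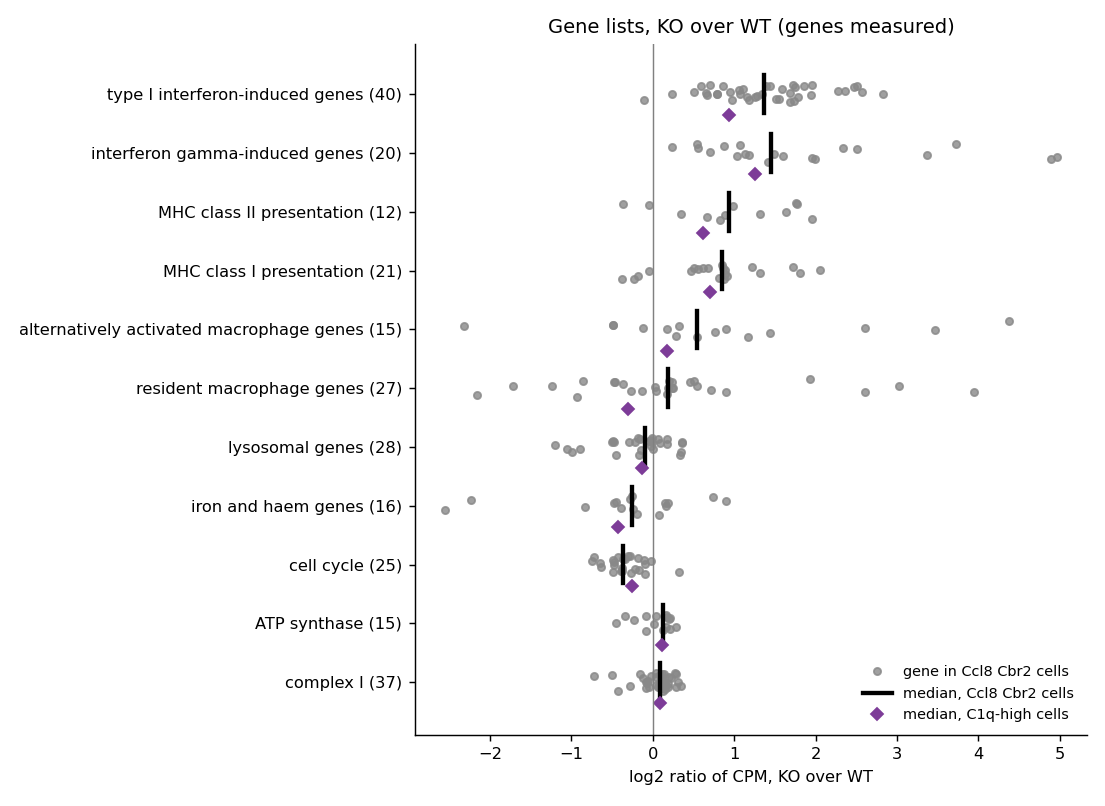
Log2 ratio of CPM, KO over WT, of each measured gene (grey points) in Ccl8 Cbr2 cells for 11 gene lists, with the list median (black bar) and the median of the same list in C1q-high cells (diamond). The type I interferon list has 37 of 40 genes at least 1.5-fold higher in KO and a median of 1.36, while the medians of the ATP synthase and complex I lists are 0.13 and 0.09.

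Ranked by whichever interval bound lies closer to 0, the 12 genes highest in KO over WT were Cxcl9, Ly6a, Lyve1, Ltc4s, Slfn4, Ccl24, Tppp3, C4b, Oas3, Ifi27l2a, Isg15 and H2-T23. Ccl24, the eosinophil chemokine eotaxin-2, had 194 UMIs in KO and 90 in WT, a log2 ratio of 2.61 (2.24 to 2.99). C4b, a complement component, had 39 UMIs in KO and 19 in WT, with a log2 ratio of 2.54 (1.72 to 3.42). Slfn4, a Schlafen gene induced by interferon, had 50 UMIs in KO and 15 in WT. Tppp3, a tubulin-binding protein, stood at 151 CPM in KO and 33.9 CPM in WT.

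The 12 lowest in KO over WT were Cxcl1, Gpnmb, Slc40a1, Chil3, Tfrc, Syngr1, mt-Atp8, Gyg, Gga2, Igf1, Znhit2 and Dcakd. They fall into no single list. Igf1 had 105 UMIs in KO and 701 in WT, 138 and 325 CPM, a log2 ratio of -1.23 (-1.54 to -0.94). With each cell thinned to 2000 UMIs, Igf1 was found in 14.9% of KO and 34.1% of WT cells, against 0 of 505 KO T cells, which allows up to 0.594%, and 0.211% of 473 WT T cells. Without thinning it was found in 33.7% of KO and 66.7% of WT Ccl8 Cbr2 cells. Fcrls, another label marker, had a log2 ratio of -0.94, and Gas6 one of -0.46, so all 3 label markers outside the gate were lower in KO. Gpnmb, a glycoprotein of lipid-laden macrophages, stood at 59.3 CPM in KO and 201 CPM in WT. Cxcl1, a neutrophil chemokine, stood at 34.2 CPM in KO and 157 CPM in WT, and 1 cell held 13 of its 26 KO UMIs. Chil3, a chitinase-like secreted protein, had 7 UMIs in KO and 99 in WT.

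Of these, 2 handle iron. Slc40a1, the iron exporter ferroportin, had 5 UMIs in KO and 83 in WT, 6.58 and 38.5 CPM, a log2 ratio of -2.55 (-4.21 to -1.27). Tfrc, the transferrin receptor, had 8 UMIs in KO and 107 in WT, a log2 ratio of -2.24 (-3.49 to -1.21). In C1q-high cells their ratios were 0.35 and -0.51. Of all 16 measured iron and haem genes, 2 were higher and 3 lower in KO, with a median of -0.25. Hmox1, haem oxygenase 1, stood at 1317 CPM in KO and 2337 CPM in WT, a log2 ratio of -0.83 (-0.93 to -0.73).

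**Figure D4:**
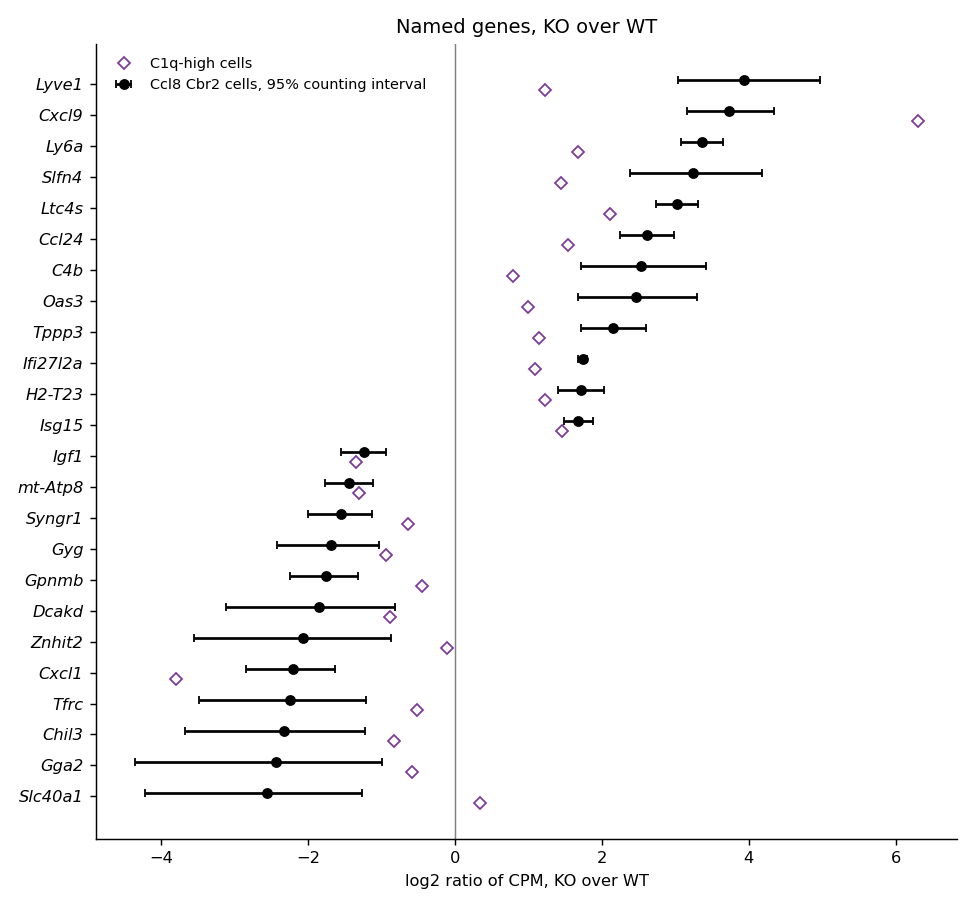
Log2 ratio of CPM, KO over WT, of the 24 named genes in Ccl8 Cbr2 cells (points, 95% counting intervals) and in C1q-high cells (diamonds, no interval drawn). The genes with higher values in KO lie above 0 in both groups of cells, and Slc40a1 is at -2.55 in Ccl8 Cbr2 cells and 0.35 in C1q-high cells.

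Genes of oxidative phosphorylation, in which the ATPIF1 protein acts, held few genes past 1.5-fold. Of 15 measured ATP synthase genes, 0 were past 1.5-fold in either direction, with a median of 0.13. Of 37 complex I genes, 0 were higher and 1 was lower, with a median of 0.09, and of 25 genes of complexes II to IV, 0 were past 1.5-fold. Among 13 mitochondrially encoded genes, mt-Atp8 was the 1 gene past 1.5-fold, at 117 CPM in KO and 317 CPM in WT. Its transcript overlaps that of mt-Atp6, so its count is uncertain. Lysosomal genes, of which 0 of 28 were higher and 4 lower, and lipid handling genes, of which 2 of 22 were higher and 5 lower, had medians of -0.10 and -0.25. Cell cycle genes had 0 of 25 higher and 4 lower, with a median of -0.37. The shares lower were 14.3% for lysosomal, 22.7% for lipid handling and 16% for cell cycle genes, beside 14.6% over all genes.

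The resident macrophage list had no common direction between libraries, with 6 of 27 genes higher, 5 lower and a median of 0.19. Lyve1 had 65 UMIs in KO and 12 in WT, a log2 ratio of 3.94 (3.04 to 4.97), and Ltc4s had 396 UMIs in KO and 138 in WT, a log2 ratio of 3.03 (2.74 to 3.32). In the other direction, Stab1 had a log2 ratio of -0.86. Vsig4, a complement receptor of resident macrophages, had 0 UMIs in KO and 38 in WT, and the floor of 3 counts in KO gives a log2 ratio of -2.16 or lower. In WT 1 cell held 71.1% of those UMIs.

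Most cells with a Lyve1 UMI also held Ltc4s, but most cells with at least 3 Ltc4s UMIs held no Lyve1 UMI. Cells with at least 3 Ltc4s UMIs, a split chosen after the values were seen, were 29 of 92 in KO (31.5%, 22.2 to 42.0) and 16 of 183 in WT (8.74%, 5.08 to 13.8). With each cell thinned to 2000 UMIs, an Ltc4s UMI was found in 26 of 87 KO cells (29.9%) and 20 of 182 WT cells (10.99%), although KO cells were the shallower ones before thinning. Of 13 KO cells with a Lyve1 UMI, 12 were Ltc4s cells, and of 7 such WT cells, 4 were. Conversely, 12 of 29 KO and 4 of 16 WT Ltc4s cells held a Lyve1 UMI. At least 5 Cbr2 UMIs were held by 26 of 29 KO and 15 of 16 WT Ltc4s cells.

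In Ltc4s cells 12.8% of 2968 measured genes were at least 1.5-fold higher in KO and 16.3% lower, and in other cells 11.4% of 7530 were higher and 17.9% lower. Of 25 resident genes, 11 were higher and 2 lower in KO Ltc4s cells, with a median of 0.36, and 4 were higher and 6 lower in KO other cells, with a median of -0.24. Of the alternatively activated macrophage genes, 7 of 10 were higher and 0 lower in KO Ltc4s cells, with a median of 0.82. Lists of other kinds moved in these cells as well. Among inflammatory genes 10 of 14 were higher and 0 lower, with a median of 1.21. Among CC and CXC chemokines 8 of 12 were higher and 2 lower, and among hypoxia response genes 8 of 11 were higher and 0 lower. Cell cycle genes had 1 of 20 higher and 10 lower, which rests on few cells. Mki67 UMIs lay in 5 KO and 7 WT Ltc4s cells, and 1 cell held 45.5% of them in KO and 50% in WT. Ccl24 stood at 582 CPM in KO and 56.4 CPM in WT Ltc4s cells, and at 75.5 CPM in KO and 40.2 CPM in WT other cells. Among the KO other cells, 1 cell held 64.9% of the Ccl24 UMIs. Without the cell with most Ccl24 UMIs in each library, the log2 ratio in other cells was 0.07 (-0.93 to 0.98). Pf4, the platelet factor 4 chemokine, stood at 8486 CPM in KO and 2832 CPM in WT Ltc4s cells, and at 4194 CPM in KO and 4314 CPM in WT other cells. F13a1, coagulation factor XIII A, stood at 1061 CPM in KO and 549 CPM in WT Ltc4s cells, and at 331 CPM in KO and 401 CPM in WT other cells. Arg1, arginase 1, was the most uneven, at 1669 CPM over the 29 KO Ltc4s cells, 21 of which held a UMI, and at 37.6 CPM over the 16 WT Ltc4s cells, 5 of which did, with 357 CPM in KO and 403 CPM in WT other cells. Folr2 stood at 886 CPM in KO and 559 CPM in WT Ltc4s cells, and at 227 CPM in KO and 249 CPM in WT other cells. Igf1 went the other way, at 70.5 CPM in KO and 193 CPM in WT Ltc4s cells. The intervals of the Gas6, Selenop and Maf ratios in Ltc4s cells span 0, with Gas6 at 241 CPM in KO and 249 CPM in WT. In other cells the KO over WT log2 ratio was -0.14 (-0.45 to 0.16) for Folr2, -0.04 (-0.11 to 0.03) for Pf4, -0.17 (-0.42 to 0.07) for Arg1 and -0.29 (-1.84 to 1.01) for Cd163, all with intervals that span 0. For Mrc1 it was -0.24 (-0.48 to -0.0025), and Lyve1 had 1 UMI in KO and 5 in WT other cells. The split is on a gene that was itself higher in KO, and it takes 29 of 92 KO but 16 of 183 WT cells out of the other group.

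MHC class II genes showed the opposite layout. In KO, H2-Ab1 stood at 115 CPM in Ltc4s cells and 2315 CPM in other cells. In WT it stood at 432 CPM in Ltc4s cells and 454 CPM in other cells. Without the cell of highest class II share in each group, WT stood at 200 CPM in Ltc4s cells and 416 CPM in other cells. KO then stood at 98.5 CPM in Ltc4s cells and 2104 CPM in other cells. The class II list had a median KO over WT ratio of -0.60 in Ltc4s cells, with 5 of 9 genes lower and 0 higher, and of 1.37 in other cells, with 9 of 12 higher and 0 lower. The negative value in Ltc4s cells leans on 1 WT cell, which held 55.4% of the H2-Ab1 UMIs of its group. Per cell, the class II list had a median of 0.517% of UMIs in KO and 0.368% in WT Ltc4s cells, and of 1.20% in KO and 0.502% in WT other cells.

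For the type I list, no measured gene was at least 1.5-fold lower in KO in either subset. It had a median log2 ratio of 0.71 in Ltc4s cells, with 12 of 23 genes higher and 11 short of 1.5-fold, and of 1.48 in other cells, with 37 of 39 higher. Per cell its median was 1.81% in KO and 0.442% in WT Ltc4s cells, and 1.17% in KO and 0.291% in WT other cells. Cxcl9 was at 0 UMIs in the Ltc4s cells of both libraries, so all of its UMIs lay in the other cells.

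**Figure D5:**
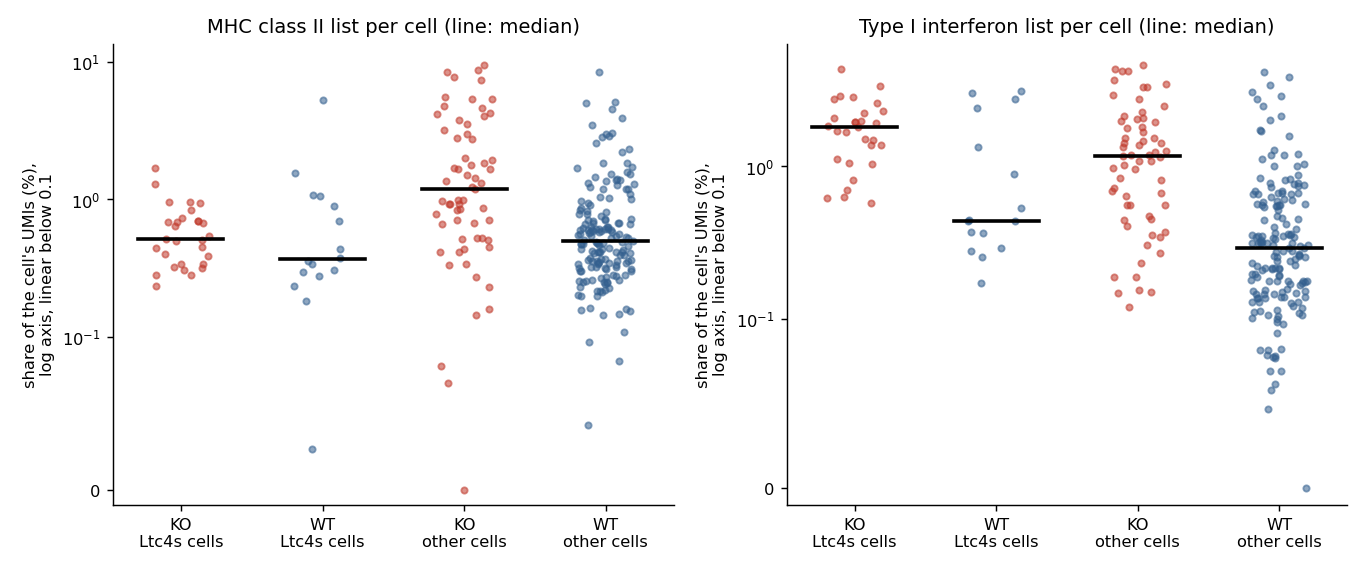
Share of each cell's UMIs (%, log axis, linear below 0.1) taken by the MHC class II list (left) and the type I interferon list (right), 1 point per cell, in Ltc4s cells and other Ccl8 Cbr2 cells, KO left of WT in each pair, with medians as lines. The class II medians are 0.517% in KO and 0.368% in WT Ltc4s cells, and 1.20% in KO and 0.502% in WT other cells.

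Cells admitted by one gate gene alone differed in other genes as well. Ccl8-only cells had at least 5 Ccl8 UMIs and at most 1 of Cbr2 (22 KO and 21 WT cells), and Cbr2-only cells the reverse (33 KO and 87 WT cells), a split also chosen after the values were seen. Of 2699 genes measured in both, 2.00% were at least 1.5-fold higher and 5.19% at least 1.5-fold lower in Ccl8-only cells in both libraries. Ccl12, a monocyte chemokine encoded beside Ccl8, stood at 2867 CPM in Ccl8-only and 518 CPM in Cbr2-only cells of KO, and at 1251 CPM against 488 CPM in WT. Isg15 stood at 961 CPM against 464 CPM in KO and at 409 CPM against 197 CPM in WT. Cxcl16, a membrane chemokine, stood at 400 CPM against 91.6 CPM in KO and at 391.9 CPM against 228 CPM in WT. Mt1, a metallothionein, stood at 3697 CPM against 957 CPM in KO and at 2046 CPM against 1211 CPM in WT. On the lower side, Folr2 stood at 238 CPM in Ccl8-only against 553 CPM in Cbr2-only cells of KO, and at 86.5 CPM against 210 CPM in WT. Ltc4s stood at 76.9 CPM against 780.4 CPM in KO and at 23.1 CPM against 43.4 CPM in WT. The WT Ccl8-only value rests on 4 UMIs, and the WT log2 ratio of -0.91 (-2.85 to 0.54) has an interval that spans 0. Of 20 measured resident genes, 0 were higher and 5 lower in Ccl8-only cells. Ccl2, Ccl7, Ccl8 and Ccl12 are close relatives, as are many H2, Ifi and Bcl2a1 genes, so reads shared among them make single counts uncertain.

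The other libraries gave one more readout that the gate did not use. A T cell receptor contig marked as a cell occurred for 0 of 92 KO Ccl8 Cbr2 cells, which allows up to 3.26%, and for 1 of 183 WT cells (0.546%), against 27.5% of KO and 29.1% of WT T cells. Any contig at all was found for 19.6% of KO and 42.1% of WT Ccl8 Cbr2 cells, and for 108 of 491 KO and 211 of 532 WT C1q-high cells. The 5 T cell markers summed to 7.90 CPM in KO and 1.86 CPM in WT Ccl8 Cbr2 cells, against 2507 CPM in KO and 2092 CPM in WT T cells. NK and mast cell markers were at 0 in both libraries, and markers of dendritic cells of the cDC2 kind summed to 17.1 CPM in KO and 1.86 CPM in WT. Neutrophil markers summed to 26.3 CPM in KO and 94.7 CPM in WT, and B cell markers to 15.8 CPM in KO and 14.4 CPM in WT. Sums over genes that the gate excludes, such as those of T cells, were held low by the gate.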

How the data were processed

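The deposited RNA matrices hold raw UMI counts per gene and barcode for 1 KO and 1 WT library, and the deposited contig tables hold counts of UMIs per T cell receptor contig. They were made with Cell Ranger 3.1.0 on mm10, per the submitters' processing notes, which also name Seurat 3.2.0 and R 3.6.1. How reads were assigned to strand is not given in the sources used here. Barcodes with at least 1000 UMIs, at least 500 genes and at most 10% mitochondrial UMIs were kept, and the gate was applied to the counts. UMIs were summed per library over the gated cells and divided by their total, 759386 UMIs in KO and 2154352 UMIs in WT, to give CPM with exact Poisson intervals. Ratios have exact conditional binomial intervals and shares exact Clopper-Pearson intervals. PCR duplicates were collapsed by the authors' UMI counting, and intervals and the floor of 3 counts cover counting error only. Genes needed 20 UMIs over both libraries (50 to be named), and 1.5-fold is a rule of size. Named genes were the 12 highest and 12 lowest by the interval bound nearest 0, above the level of empty droplets (10 to 100 UMIs). Against C1q-high cells they were the 15 highest and 10 lowest by the smaller of both log2 ratios. Those genes needed 50 UMIs over both groups of cells in each library. In the group with the higher level they also had to lie above empty droplets in both libraries. Ribosomal, receptor segment and clone-named genes were left out in all cases. Doublets were not removed from the values given. A score by the Scrublet method (scanpy 1.11.5) marked 82 KO and 153 WT cells at 0.8% per 1000 barcodes, of which 0 KO and 2 WT were Ccl8 Cbr2 cells. The calculations ran in Python 3.11.15 and were tested on simulated data. The cells, the gene lists and the comparisons were chosen with earlier results of these data known. Alternatives for the filters, the gate, scaling, weighting, thinning, free RNA, gene minimum and comparison cells were tried. Those that leave out Ltc4s cells, cells with a barcode shared between the libraries, cells with melanoma UMIs, or the cell with most UMIs of a gene were added after seeing the data.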

Additional observations from a re-analysis of the deposited data

Results flagged for a closer look

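Only genes picked by hand for the Ltc4s split were screened, so the number below is no count over all measured genes. For 8 of them the KO over WT log2 ratio lay on opposite sides of 0 in Ltc4s cells and the other Ccl8 Cbr2 cells. Both counting intervals were clear of 0, over 29 KO and 16 WT Ltc4s cells and 63 KO and 167 WT other cells. The difference itself was not tested. For H2-Ab1 the ratio was -1.91 in Ltc4s cells and 2.35 in other cells, for H2-Aa -1.76 and 2.21, for H2-Eb1 -1.99 and 2.36, and for Cd74 -0.995 and 1.83. Leaving out the cell with the highest class II share in each library moved the Ltc4s values to -1.02 for H2-Ab1, -0.71 for H2-Aa, -1.26 for H2-Eb1 and -0.43 for Cd74, and those of other cells stayed between 1.81 and 2.42. For F13a1 the ratio was 0.95 in Ltc4s cells and -0.28 in other cells, and for Mrc1 0.59 and -0.24. For Spp1, the osteopontin gene, it was 0.51 and -0.97. For Fcrls it was 0.94 and -1.41, but 1 cell held 62.7% of the KO UMIs of Ltc4s cells, and without the cell with most Fcrls UMIs in each library that ratio was -0.09 (-1.13 to 0.96).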

How the results depend on the processing

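Of the results that answer a comparison, 415 values under alternatives stayed within the reported value's own 95% counting interval (for a list median, between the medians of its genes' bounds; for a count, within 1.5 times), 37 moved and 6 reversed. Of the single genes 632 stayed, 98 moved and 11 reversed. The cause of these changes was not tested. With Ccl8 and Cbr2 at 0.05% of UMIs or more, the log2 ratio of the shares, KO over WT, was -0.068 of all cells and -0.15 of Lyz2 cells. The share with 5 or more Cbr2 UMIs was then 36.4% in KO and 57.6% in WT, with at least 3 UMIs of the pair 38.2% and 51.6%, and with cells thinned to 2000 UMIs 8.05% and 3.30%. Genes past 1.5-fold were 396 higher and 581 lower after thinning, and 390 higher and 561 lower with a gene minimum of 50 UMIs. Both settings leave fewer genes measured than the 8011 behind the reported 828 higher and 1167 lower, so the counts are not like for like. Without Ltc4s cells, an alternative chosen after seeing the data, the KO over WT medians were -0.24 for resident and -0.058 for alternatively activated genes. The single genes were then at -0.33 for Lyve1, which had 1 KO UMI, -0.14 for Folr2, -0.24 for Mrc1, -0.041 for Pf4, -0.29 for Cd163 and -0.17 for Arg1, and the intervals of all but Mrc1 span 0. Ccl12, close to 0 throughout, was 0.082 with at most 5% mitochondrial UMIs, 0.22 with at least 3 UMIs of the pair and 0.078 as a mean over cells. Mrc1 was -0.022 with at least 10 UMIs of the pair, and Atpif1 0.11 with Cbr2 alone at 3 UMIs or more.

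Medians over C1q-high cells moved as follows. With at least 3 UMIs of the pair, inflammatory genes in WT were at -0.82. With at least 10, inflammatory genes were at -1.10 in KO and -1.71 in WT, and MHC class II at -1.85 in WT. MHC class II was at -1.76 in WT with the gate on the share of UMIs, and at -1.32 in KO with Cbr2 alone, where inflammatory genes were at -0.73 in WT. After thinning, cell cycle genes were at 0.12 in KO and resident genes at 0.70 in WT. Without the 5% of cells with most UMIs, cell cycle genes were at 0.18 in KO. Without Ltc4s cells, resident genes were at 0.72 and MHC class II at -0.40 in KO. Against Ear2 Mgl2 cells, resident genes were at 2.66 in KO and 1.82 in WT, MHC class II at -1.57 and -2.62, matrix genes at 0.42 and -0.27, inflammatory genes at 0.067 in KO and -0.073 in WT, and cell cycle genes at -0.74 and -0.17. Against C1q-low cells, resident genes were at 1.92 in KO and 2.21 in WT, inflammatory genes at -1.22 and -2.12, and cell cycle genes at 2.37 and 2.58, and matrix genes at -1.35 in WT.

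No paired analysis was possible because each genotype had 1 pooled library. For the same reason no library was left out and no difference between genotypes was tested. Genes with few UMIs in the 92 KO cells, such as Slc40a1 with 5, have wide counting intervals.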
